A study of Mus musculus with 9 samples.

Results

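The genes examined were 8 that carry steroid hormone signals in female reproductive tissue, chosen by name: the estrogen receptor genes Esr1 and Esr2, the progesterone receptor gene Pgr, the glucocorticoid and mineralocorticoid receptor genes Nr3c1 and Nr3c2, the receptor cochaperone genes Fkbp4 and Fkbp5, and Hsd11b1. They are 8 of 21755 protein-coding genes on the autosomes and the X chromosome in GENCODE M21. Every peak whose summit lay in a gene body or within 20 kb of it was taken. Overlapping peaks of the 6 replicate peak lists were merged, which gave 76 regions of 82949 in the whole genome. A region was called a promoter region where its highest summit lay within 2 kb of an annotated start of the gene (23 regions), a promoter region of another gene where only some other gene started that close (9 regions), and distal otherwise (44 regions). Regions are numbered along the chromosome within each gene.

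The libraries came from ChIC-Seq, in which an antibody carries protein A fused to micrococcal nuclease to its target and the nuclease releases the chromatin nearby. The cells were primary oviductal muscle cells of wild-type mice on day 2 of pregnancy, 8 to 12 weeks old. They had been digested from the oviduct, held for 4 h in charcoal-stripped serum and 2 h in fetal bovine serum, fixed with formaldehyde and used at 50000 cells per library. There were 3 libraries with an antibody to PBRM1 and 3 with an antibody to BRG1. The labels do not say whether the 3 libraries of an antibody came from separate mice or cultures, so every spread and p-value below measures the difference between libraries, which may be technical. No IgG control was analysed here, although the labels list 3 such samples. The PBRM1 lists rested on 18126049 to 23992352 fragments and the BRG1 lists on 14284532 to 15897724. For each antibody a list called on its 3 libraries together was also used, with 61910852 fragments for PBRM1 and 45216486 for BRG1. Levels are given as normalised pileup, the number of fragments that covered a peak's summit scaled to 1000000 fragments of its list. The antibody is the only thing that differs by label between the groups, so the amount of protein at a site and the yield of its antibody cannot be told apart. The BRG1 lists also had fewer fragments in total, so levels scaled to those totals rest on this difference as well.

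BRG1 is the ATPase that drives SWI/SNF chromatin remodelling complexes, and PBRM1 is a bromodomain subunit that belongs to only the PBAF form of the complex. Steroid receptors are transcription factors that bind DNA and recruit coregulators, remodelling complexes among them, when a hormone enters the cell. Unliganded glucocorticoid, mineralocorticoid and progesterone receptors are held by chaperones, where Fkbp4 favours and Fkbp5 opposes hormone response, and Fkbp5 is itself a classic target of these receptors. In the oviduct, estrogen and progesterone receptors are known for setting the pace of embryo transport through muscle and epithelium.

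The stretches below come from sites named in the results, read from GRCm38.p6 on the plus strand. The first is the part of Fkbp5 region 16 that lies just upstream of the start of the transcript Fkbp5-201, at chr17:28486150-28486350, the site with the highest BRG1 level of the 8 genes. Capitals mark its 20 CpG pairs.
Fkbp5 region 16: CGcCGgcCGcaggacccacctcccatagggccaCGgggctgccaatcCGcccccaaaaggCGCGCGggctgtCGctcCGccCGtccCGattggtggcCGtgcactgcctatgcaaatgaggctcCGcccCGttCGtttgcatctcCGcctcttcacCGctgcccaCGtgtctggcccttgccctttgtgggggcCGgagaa
The next lies at the middle of the only merged region of Pgr, inside exon 1, at chr9:8901001-8901161, and capitals again mark CpG pairs.
Pgr region 1: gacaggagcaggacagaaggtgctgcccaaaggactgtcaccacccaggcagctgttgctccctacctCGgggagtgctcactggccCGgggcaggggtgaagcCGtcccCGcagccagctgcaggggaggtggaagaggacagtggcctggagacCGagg
The 3 stretches that follow are the only ones among the 76 regions with a match to the relaxed glucocorticoid and progesterone response element used here, which is marked in capitals. They lie at chr17:28478191-28478331, chr17:28484889-28485029 and chr17:28523114-28523254.
Fkbp5 region 14: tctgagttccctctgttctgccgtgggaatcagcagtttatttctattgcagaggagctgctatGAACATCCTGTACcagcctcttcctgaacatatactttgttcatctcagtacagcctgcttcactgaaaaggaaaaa
Fkbp5 region 15: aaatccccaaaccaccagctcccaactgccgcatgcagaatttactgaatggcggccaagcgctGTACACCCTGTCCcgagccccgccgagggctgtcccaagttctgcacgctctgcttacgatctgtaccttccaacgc
Fkbp5 region 19: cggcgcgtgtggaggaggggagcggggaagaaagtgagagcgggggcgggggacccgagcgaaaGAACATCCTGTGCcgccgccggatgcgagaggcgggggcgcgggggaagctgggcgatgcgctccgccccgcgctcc
The last is the intronic Esr1 site with the highest level in that gene, at chr10:4620980-4621160, with an AP-1 match in capitals.
Esr1 region 3: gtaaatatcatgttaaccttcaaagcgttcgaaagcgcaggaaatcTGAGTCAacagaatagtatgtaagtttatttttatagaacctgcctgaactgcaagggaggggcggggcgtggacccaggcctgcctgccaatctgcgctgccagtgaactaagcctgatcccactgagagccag

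All 8 genes had a promoter peak in at least 1 replicate list of each antibody and in both pooled lists. A promoter peak was present in all 6 lists for 5 of the 8 genes, Esr2, Pgr, Nr3c1, Fkbp4 and Fkbp5, where 41.8% of protein-coding genes had one. Esr1 had a promoter peak in 3 PBRM1 lists and 2 BRG1 lists, Hsd11b1 in 2 and 2, and Nr3c2 in 1 and 2. By antibody, 6 of the 8 promoters were held by all 3 PBRM1 lists and 5 by all 3 BRG1 lists, against 44.2% and 50.0% of protein-coding genes. A further 34.3% of protein-coding genes had no promoter peak in any of the 6 lists, and none of the 8 was among these. Any annotated start counted, from 2 at Esr2 to 14 at Fkbp5, and the genome shares were not matched for the number of starts. With so few genes these counts describe the 8 and say nothing of steroid receptor genes as a class.

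The number of peaks in the 8 windows did not separate the antibodies. The PBRM1 lists held 36, 29 and 34 peaks and the BRG1 lists 40, 27 and 32, or 33 ± 3.61 and 33 ± 6.56 (SD, n = 3 each). Most merged regions were found in few lists. Of the 76 regions, 32 (42.1%) were held by 1 list only, where 47.0% of all merged regions were, and 6 (7.89%) were held by all 6, where 15.5% of all merged regions were. None of the 44 distal regions was in all 6 lists, 4 were in 5 lists and 21 in 1, while 7.78% of merged regions farther than 2 kb from any annotated start were in all 6 lists across the genome. Within 2 kb of a start the count was 6 of 32 regions (18.8%), against 32.8% across the genome. In all, 5 of the 8 genes had at least 1 region of all 6 lists in their window, as did 58.8% of protein-coding genes. The 8 windows were 48.9 to 434 kb long, against a median of 57.4 kb over protein-coding genes, and this share was not matched for length.

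The regions were spread very unevenly over the genes, as the map of regions by distance from the gene start shows. Fkbp5 had 20 regions, or 12.6 per 100 kb of window, which placed it above 94.2% of protein-coding genes. Fkbp4 had 5 (10.2 per 100 kb) and Hsd11b1 had 8 (9.70 per 100 kb), above 86.7% and 84.5%. Esr1, the longest of these genes at 394 kb, had 24 regions, but this was 5.53 per 100 kb, close to the median of 4.84 over protein-coding genes. Esr2 had 6 regions and Nr3c1 had 7, with 6.20 and 4.70 per 100 kb. Nr3c2 had 5 regions over a gene of 346 kb (1.30 per 100 kb) and Pgr had 1 (0.919 per 100 kb), the lowest densities of the 8.

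**Figure D1:**
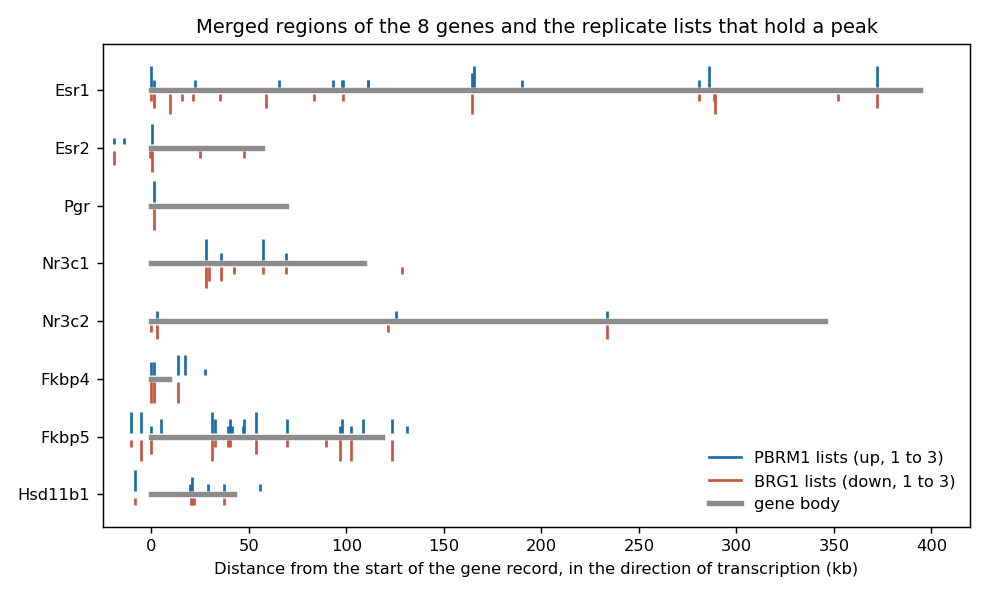
Merged regions of the 8 genes by distance of the highest summit from the start of the gene record, in kb in the direction of transcription. Lines up and down count the PBRM1 and BRG1 replicate lists with a peak (1 to 3 each) and the grey bar is the gene body. Fkbp5 carries 20 regions along its whole length, Pgr a single region at its start, and the sites of all 6 lists in Nr3c1 (region 7) and Fkbp5 (region 16) stand 27970 and 31313 bp from the gene starts.

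The estrogen receptor genes differed in layout. At Esr2, which encodes the beta receptor, region 3 covered the start of the gene (chr12:76176935-76177727) and had its highest summit 169 bp into exon 1. Its level was 0.859, 0.717 and 0.792 in the PBRM1 libraries and 0.818, 0.840 and 0.931 in the BRG1 libraries. The groups overlapped, and the 6 lists placed their peaks over 340 shared bases. The log2 difference, PBRM1 minus BRG1, was -0.13 with an SE of 0.23 (limma, adjusted p = 0.629, 95% interval -0.58 to 0.32). In normalised pileup both mean levels were low for a region of this support, above only 9.72% and 5.53% of the 12828 regions of all 6 lists. Fold enrichment ran from 4.31 to 5.33 here, where the median over all peaks of a replicate list was 4.02 to 4.56. The other 5 regions of Esr2 were held by 1 to 3 lists.

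At Esr1, which encodes the alpha receptor, no region was held by all 6 lists. The promoter signal was split between region 1, whose highest summit lay 141 bp upstream of the gene start, region 2 in intron 1, and regions 12 and 13 close to the internal start of Esr1-202. Region 1 (chr10:4611299-4611724) had levels of 0.606, 0.883 and 0.750 in the PBRM1 libraries and 0.931 in BRG1 library 3, with no peak in the other BRG1 lists. Region 2 (chr10:4612432-4612961) had a peak in PBRM1 library 3 at 0.709 and in BRG1 libraries 1 and 3 at 0.755 and 0.931. BRG1 library 2 had no promoter peak at Esr1. In the pooled lists region 1 stood at 0.695 for PBRM1 and 0.863 for BRG1. Of the 24 regions of Esr1, 20 were distal, all of them in introns of the longest coding transcript, and 13 of the 24 were found in a single list.

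Esr1 held 4 of the 5 regions of the 8 genes that all 3 lists of one antibody shared and no list of the other held. Such regions were rare in the genome, 1.22% of merged regions for PBRM1 alone and 0.916% for BRG1 alone, and among the 76 they numbered 3 and 2. Region 3 of Esr1 (chr10:4620813-4621277), in intron 1 at 9507 bp from the gene start, had BRG1 levels of 1.64, 0.840 and 2.06 and no peak in the PBRM1 lists. Region 22 (chr10:4900407-4900802), in intron 6, had BRG1 levels of 0.503, 0.630 and 0.599. Region 20 (chr10:4897379-4898074) lay in the same intron and had PBRM1 levels of 0.960, 0.883 and 0.875 with no peak in the BRG1 replicate lists. Neighbouring sites of 1 intron were thus in the replicate lists of opposite antibodies, but region 22 rested on only 8, 9 and 9 fragments. Region 17 (chr10:4776747-4777086), in intron 4, had PBRM1 levels of 0.707, 0.662 and 0.584. The fifth such region was Fkbp4 region 2 (chr6:128421257-128421769), downstream of Fkbp4, with PBRM1 levels of 0.909, 0.772 and 0.917.

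The pooled lists kept this division only in part. All 5 regions had a peak in both pooled lists, against 60.8% of the regions held by PBRM1 lists alone and 84.9% of those held by BRG1 lists alone in the genome. At Esr1 region 3 the pooled PBRM1 peak had a pileup of 56 fragments, or 18.7 per library, a level of 0.905 against 1.53 for pooled BRG1, and a -log10 q of 23.9, although none of the 3 PBRM1 lists held a peak there. At Esr1 region 22 the pooled levels were 0.468 for PBRM1 and 0.531 for BRG1, and at Esr1 region 17 they were 0.614 and 0.575. The order at region 22 turned in pooled fragments, 29 for PBRM1 and 24 for BRG1, but not in fold enrichment, 3.297 and 5.517. At region 17 it turned in fold enrichment, 3.748 for PBRM1 and 3.804 for BRG1, but not in pooled fragments, 38 and 26. Esr1 region 20 had pooled levels of 0.695 for PBRM1 and 0.398 for BRG1. Regions 20 and 3 of Esr1 kept the order of the replicate lists with the widest gaps in level, log2 differences of 0.80 and -0.75. The pooled lists were called on the same libraries by which these 5 regions were picked, so a kept order is no separate support. At Fkbp4 region 2 the order turned in normalised pileup, with 0.791 for PBRM1 and 0.951 for BRG1, although the replicate lists of BRG1 held no peak there. It did not turn in pooled fragments, 49 for PBRM1 and 43 for BRG1, or in fold enrichment, 3.11 and 2.94. Absence from a replicate list thus did not mean an absence of fragments.

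**Figure D2:**
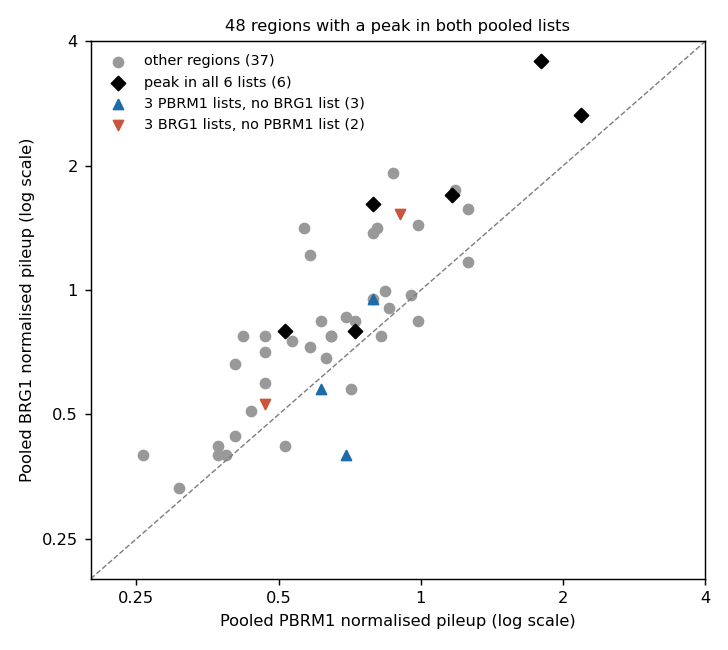
Pooled normalised pileup for PBRM1 (x axis) and BRG1 (y axis), both on log scales, for the 48 regions with a peak in both pooled lists. The dashed line marks equal levels. Of the 5 regions held by the replicate lists of 1 antibody alone, Esr1 region 20 lies farthest to the PBRM1 side of the line (0.695 and 0.398) and the other 4 lie among the other regions, and the 2 highest BRG1 points are Fkbp5 region 16 (3.58) and Fkbp4 region 3 (2.65).

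Pgr, the progesterone receptor gene, had 1 merged region, a stretch of 1984 bp over exon 1 (chr9:8900083-8902066). Its level was 0.657, 0.717 and 0.584 in the PBRM1 libraries and 0.881, 0.840 and 0.865 in the BRG1 libraries. On this scale every BRG1 value stood above every PBRM1 value. The mean levels were low, above only 2.64% of the regions of all 6 lists for PBRM1 and 5.39% for BRG1. The log2 difference of -0.41 with an SE of 0.23 did not pass the test (limma, adjusted p = 0.122, 95% interval -0.86 to 0.05). Before scaling, the summits held 13, 13 and 14 fragments for PBRM1 and 14, 12 and 13 for BRG1, which overlap. On fold enrichment every PBRM1 value stood above every BRG1 value (4.56, 4.28 and 3.84 against 3.42, 3.59 and 3.52). The highest peaks of the 6 lists shared no base here and their outermost summits lay 1503 bp apart, so the values compare different positions of 1 exon. The pooled PBRM1 list added 2 weak peaks in intron 3, at levels of 0.388 and 0.307. Both pooled lists also held a peak just downstream of the gene that no replicate list held, at 0.258 for PBRM1 and 0.575 for BRG1, close to a start of another gene.

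Nr3c1 encodes the glucocorticoid receptor and is transcribed from several alternative first exons. The gene record starts with a distant first exon, and no replicate list had a peak within 2 kb of it. The pooled BRG1 list held a weak peak 7 bp from that start, with a level of 0.332 and a -log10 q of 3.16. The supported site was region 7 (chr18:39491079-39491911), 27970 bp farther in and 150 bp upstream of the start of Nr3c1-205. Its level was 0.909, 0.772 and 0.875 in the PBRM1 libraries and 1.89, 1.61 and 1.73 in the BRG1 libraries. The groups did not overlap, and BRG1 was 2.04-fold higher, a log2 difference of -1.03 with an SE of 0.21 (limma, adjusted p = 7.1e-05). In the same test 53.0% of all regions were called higher for BRG1, and the call here was lost after the libraries were centred on their medians (limma, adjusted p = 0.081) and on fold enrichment (limma, adjusted p = 0.127). Region 6, 15 bp into Nr3c1-208, had peaks in BRG1 libraries 1 and 3 only, at 1.26 and 1.73. The pooled PBRM1 list held region 6 at 0.581 and the pooled BRG1 list at 1.22. Among the distal sites, region 3 in intron 2 was in all 3 PBRM1 lists (0.707, 0.883 and 0.709) and in 1 BRG1 list (0.931).

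Nr3c2, the mineralocorticoid receptor gene, had the weakest replicate support. Its best promoter site, region 2 in intron 1 (chr8:76902030-76902493), lay 179 bp upstream of the start of Nr3c2-203. It had a level of 1.16 in PBRM1 library 1 and of 2.03 and 1.86 in BRG1 libraries 2 and 3, and no peak in the other 3 lists. In the pooled lists it was nonetheless among the higher sites of the 8 genes, at 0.872 for PBRM1 and 1.92 for BRG1, with -log10 q values of 19.0 and 40.7. Region 1, 260 bp upstream of the gene start, had a peak in BRG1 library 2 alone, at 1.05.

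Fkbp4, which encodes the cochaperone that favours receptor function, had promoter peaks in all 6 lists, but in 2 adjacent regions with 5 lists each. Region 5 (chr6:128438327-128439340), with its highest summit 21 bp upstream of the gene start, had levels of 0.606 and 0.709 in PBRM1 libraries 1 and 3 and of 1.38, 1.54 and 1.60 in the BRG1 libraries. Region 4 (chr6:128437475-128438171), in intron 1, had levels of 1.06 and 0.883 in PBRM1 libraries 1 and 2 and of 1.13, 1.05 and 1.13 in the BRG1 libraries. At region 5 every BRG1 value stood above both PBRM1 values, and at region 4 the values of the antibodies overlapped. The strongest Fkbp4 window site was region 3 (chr6:128424344-128424996), downstream of Fkbp4 and 52 bp from a start of the neighbouring gene Itfg2. Its level was 2.63, 2.59 and 1.50 in the PBRM1 libraries and 2.26, 3.22 and 2.59 in the BRG1 libraries. The groups overlapped and the log2 difference was -0.30 with an SE of 0.18 (limma, adjusted p = 0.158, 95% interval -0.66 to 0.07). It was the highest PBRM1 level of the 8 genes, above 95.9% of regions of all 6 lists for PBRM1 and 86.9% for BRG1.

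Fkbp5, the cochaperone that opposes receptor function, had the densest sites and the highest level of any of the 8 genes. Region 16 (chr17:28486107-28486483) lay in intron 4 of the longest transcript, 65 bp upstream of the start of the shorter transcript Fkbp5-201 and 31313 bp from the gene start. Its level was 2.07, 1.82 and 1.54 in the PBRM1 libraries and 3.84, 3.08 and 3.79 in the BRG1 libraries, from 33 to 61 fragments at the summit. The lowest BRG1 library was above the highest PBRM1 library, and BRG1 was 1.98-fold higher, a log2 difference of -0.98 with an SE of 0.17 (limma, adjusted p = 8.5e-06). The call was kept after median centring (limma, adjusted p = 0.034) and lost on fold enrichment (limma, adjusted p = 0.067). The 6 summits fell within 13 bp of each other, the tightest of the supported sites, and BRG1 stood above 96.5% of regions of all 6 lists and PBRM1 above 88.4%. The sequence printed above was rich in CpG pairs. Within 150 bp of the summit 72.8% of bases were G or C, with 37 CpG pairs, against medians of 59.5% and 18 over the regions of all 6 lists.

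The start of the long Fkbp5 transcripts was held more weakly. Region 18 (chr17:28517567-28518512), 76 bp upstream of the gene start, had a level of 1.47 in PBRM1 library 1 and of 1.76 and 1.80 in BRG1 libraries 1 and 3. Farther upstream, region 19 (chr17:28522693-28523472) lay at the starts of the long noncoding RNA genes Gm20109 and E230001N04Rik. Its level was 1.26, 1.27 and 1.50 in the PBRM1 libraries and 1.76, 1.96 and 2.06 in the BRG1 libraries. The groups did not overlap on this scale, and the log2 difference was -0.52 with an SE of 0.20 (limma, adjusted p = 0.020). In fragments at the summit they did overlap, with 25, 23 and 36 for PBRM1 and 28, 28 and 31 for BRG1. The call was lost after median centring (limma, adjusted p = 0.888) and on fold enrichment (limma, adjusted p = 0.974). It was also lost when any 1 of 4 libraries was left out (adjusted p from 0.052 without BRG1 library 2 to 0.081 without BRG1 library 3, and 0.055 and 0.061 without PBRM1 libraries 1 and 2). Of the other regions, region 9 in intron 4 was in 5 lists at 1.01 to 1.21, and region 2, downstream of the gene, in 5 lists at 1.00 to 1.96.

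**Figure D3:**
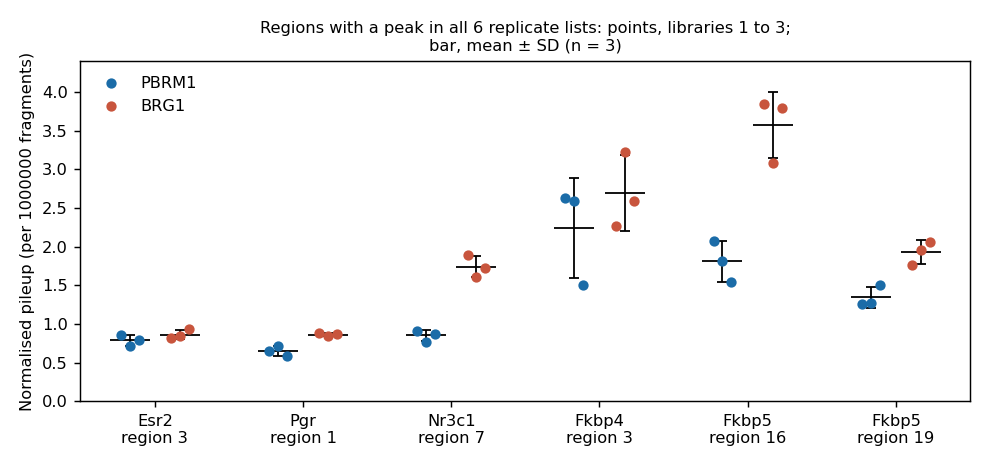
Normalised pileup in each library at the 6 regions held by all 6 lists. Points are libraries, black bars the mean and SD of 3. The BRG1 points lie above all PBRM1 points at Pgr region 1, Nr3c1 region 7 and Fkbp5 regions 16 and 19, and overlap them at Esr2 region 3 and Fkbp4 region 3.

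Hsd11b1, whose enzyme regenerates active glucocorticoid inside cells, had 8 regions and none in all 6 lists. Its promoter sites clustered around the internal starts of Hsd11b1-201 and Hsd11b1-202, about 20 kb into the gene record. Region 5 (chr1:193242943-193243490), 414 bp upstream of the start of Hsd11b1-201, was held at 0.606 and 0.662 by PBRM1 libraries 1 and 2 and at 0.798 by BRG1 library 3. Regions 4, 6 and 7 beside it were each held by 1 list, among them BRG1 library 2 at region 6 with 1.19. The best supported region of the window, region 8 (chr1:193272334-193273088), lay upstream at starts of G0s2 and Lamb3 and was in all 3 PBRM1 lists (0.404, 0.662 and 0.584) and in 1 BRG1 list (0.629).

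Between the antibodies, 3 of the 6 regions of all 6 lists passed the test on normalised pileup, Nr3c1 region 7 and Fkbp5 regions 16 and 19, and BRG1 was higher at each. This was the common pattern of the genome, since 53.0% of the 12828 regions tested were called higher for BRG1 and 0.413% higher for PBRM1. BRG1 values stood above all PBRM1 values at 4 of the 6 regions and at 56.8% of all regions. An exact permutation test of 3 against 3 libraries cannot give a p below 0.1. The median log2 difference was -0.46 over the 6 regions and -0.49 over all regions, so on this scale the BRG1 libraries stood 1.40-fold higher at the typical region. Before scaling, the median pileup of a peak was 17, 17 and 18 fragments in the PBRM1 lists and 16, 15 and 15 in the BRG1 lists. The BRG1 lists had fewer fragments in total, and the part of this shift that came from scaling to unequal totals was not tested.

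Set against that shift, the 6 regions split. After the libraries were centred on their medians, 2.45% of all regions were called higher for BRG1 and 2.25% higher for PBRM1. That is 52.2% of calls for BRG1, where it had been 99.2% before. Centring gives every library the same median, so a near-even split follows largely from the step itself. The call was kept at Fkbp5 region 16 alone, with a log2 difference of -0.52 and an SE of 0.15. Nr3c1 region 7 stood at -0.57 with an SE of 0.20, and Fkbp5 region 19 at -0.06. Esr2 region 3, Pgr region 1 and Fkbp4 region 3 turned to positive values of 0.34, 0.06 and 0.17, none of which passed. On the deposited fold enrichment over local background, limma called none of the 6 (2 at an unadjusted p below 0.05), where 10.7% of all regions were called higher for BRG1 and 0.218% for PBRM1. On that scale Fkbp5 region 16 was at -0.44 and Nr3c1 region 7 at -0.36. These 2 sites were lower for PBRM1 on all 3 scales, and 3.54% and 2.30% of all regions had a more negative difference in normalised pileup.

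**Figure D4:**
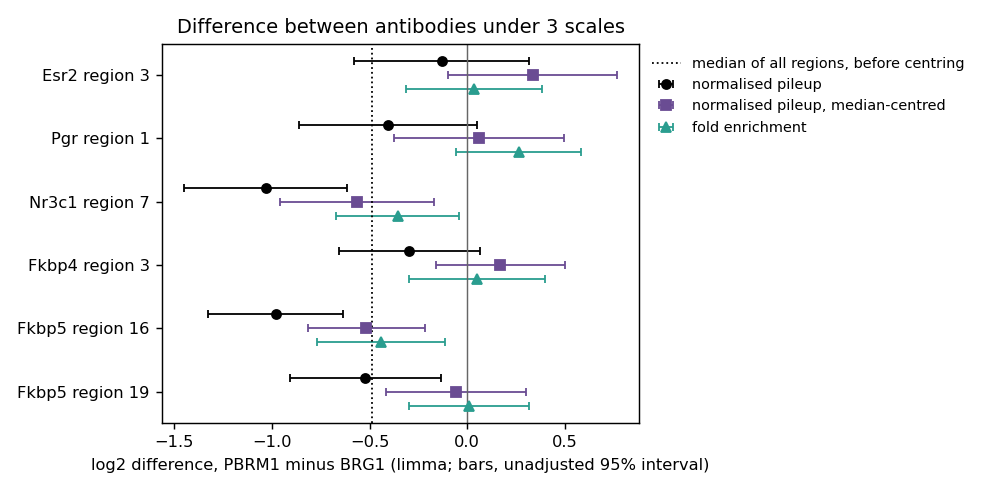
The log2 difference of PBRM1 minus BRG1 at the 6 regions, for normalised pileup (circles), after median centring (squares) and for fold enrichment (triangles), each with the unadjusted 95% interval from limma. The dotted line is the median of all regions before centring (-0.49). Nr3c1 region 7 and Fkbp5 region 16 stay below 0 on all 3 scales and the other 4 regions have intervals that include 0 after centring.

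The pooled lists widened the set of sites. They held 82 PBRM1 peaks and 75 BRG1 peaks in the 8 windows. Of the PBRM1 peaks 17 (20.7%) met a peak in all 3 PBRM1 replicate lists and 32 (39.0%) in none, where 19.0% and 43.9% of all pooled PBRM1 peaks did. Of the BRG1 peaks 13 (17.3%) met a peak in all 3 BRG1 lists and 28 (37.3%) in none, against 19.3% and 43.3%. A peak of the other antibody's pooled list overlapped 50 of the PBRM1 peaks (61.0%) and 52 of the BRG1 peaks (69.3%), against 64.4% and 64.7% in the genome. In all, 48 of the 76 merged regions (63.2%) overlapped a peak of both pooled lists, where 65.1% of all merged regions did. Among these 48, the median log2 difference in normalised pileup, PBRM1 minus BRG1, was -0.27 against -0.35 for all such regions. Both medians rest on scaling to unequal totals, 61910852 fragments for PBRM1 and 45216486 for BRG1, whose part in them was not tested.

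Each region was searched for motifs, on either strand, up to 150 bp from its highest summit. The full glucocorticoid and progesterone response element (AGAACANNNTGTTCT) was in none of the 76 regions and in 0.00844% of all merged regions. The relaxed form (GNACANNNTGTNC, which contains the full one) was in 3 of the 76, all in Fkbp5, and in 0.668% of all merged regions. The matches were GAACATCCTGTAC in region 14, GTACACCCTGTCC in region 15 and GAACATCCTGTGC in region 19, at 22, 15 and 91 bp from the summits. Regions 14 and 15 were held by 2 and 3 lists and region 19 by all 6. The estrogen response element, full (AGGTCANNNTGACCT) or relaxed (GGTCANNNTGACC, which the full one contains), was in none of the 76 and in 0.00723% and 0.0410% of all merged regions. The AP-1 motif (TGACTCA), the binding sequence of Fos and Jun proteins, was in 10 of the 76 and in 14.3% of all merged regions, and it lay 71 bp from the summit of Esr1 region 3. Letters in a window do not show that a factor was bound. Base composition differed along the same genes. The GC share of the 24 Esr1 regions ran from 36.9% to 59.1% with a median of 44.5%, against 48.5% for all merged regions, while Fkbp4 region 5 at its gene start reached 74.8%.

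Other genes of steroid signalling, listed by function, gave a scale for these promoters. Of 10 receptors and coregulators, 8 had a promoter peak in all 6 lists, against the 41.8% of protein-coding genes given above. They included the coactivator Ncoa2 (1.67, 1.66 and 1.50 for PBRM1 and 2.26, 1.75 and 2.00 for BRG1), the corepressor Ncor1, the chaperone genes Hsp90aa1, Hsp90ab1, Ptges3 and Stip1, Nrip1 and Nr2f2. Ncoa1 and Ncoa3 were held by 2 PBRM1 lists and 3 BRG1 lists each. Of 7 genes of steroid metabolism found in the annotation, Hsd17b11, Hsd17b4 and Srd5a1 were held by all 6 lists, and Akr1c18, Cyp19a1 and Sult1e1 by none. Of 10 hormone-responsive genes, Per1, Dusp1, Klf9 and Sgk1 were held by all 6 lists and Ltf by none. Klf9, a glucocorticoid and progesterone target, reached 3.44, 3.03 and 2.63 for PBRM1 and 4.59, 4.76 and 3.99 for BRG1, so its promoter stood above that of Fkbp5 in every library. Among the 8 genes the best promoter level of Esr1, Esr2, Pgr and Hsd11b1 was at most 1.19 in any library. Nr3c1 and Nr3c2 reached 1.89 and 2.03 in BRG1 libraries. This order is one of normalised pileup and was not kept on fold enrichment. There Esr2 region 3 had 5.08, 4.31 and 5.33 for PBRM1 and 4.36, 4.87 and 5.09 for BRG1. Nr3c1 region 7 had 3.13, 3.16 and 3.58 for PBRM1 and 4.37, 4.52 and 3.76 for BRG1.

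Markers of cell types were counted in the same way to check the label. A promoter peak in all 6 lists was found at 4 of 9 smooth muscle genes, Acta2, Tagln, Smtn and Mylk, at 0 of 7 epithelial genes, at 1 of 4 stromal genes (Vim), at 0 of 3 endothelial genes and at 0 of 3 blood genes. No list held a promoter peak at Cnn1 of the smooth muscle genes, at the epithelial genes Epcam, Pax8, Foxj1 and Ovgp1, or at any of the 3 blood genes, while Krt8, Krt18 and Cdh1 were held by 1 to 3 lists. The endothelial gene Kdr was held by 2 PBRM1 and 3 BRG1 lists. The stromal gene Dcn was held by 3 BRG1 lists. The 4 of 9 smooth muscle genes are a share near the 41.8% of all protein-coding genes, so these counts do not mark the cells as muscle. The part of other cell types in the results was not tested.

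By likeness over the 6 log2 levels, the gene whose promoter region came closest to Esr2 among 8613 others was 3300002I08Rik, at a Euclidean distance of 0.340. Pgr came closest to Neil3 (0.285), Nr3c1 to Ccdc127 (0.219) and Fkbp5, by region 16, to Eef2kmt (0.184). The median distances to all genes compared were 2.50, 2.76, 1.41 and 1.78. The smallest of 8613 distances lies below their median for any gene, so the gap shows no particular likeness.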

How the data were processed

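Peak lists from 3 PBRM1 and 3 BRG1 ChIC-Seq libraries, and 1 pooled list per antibody, were used. The submitters' processing notes name cutadapt, Bowtie2, MACS2 and the build GRCm38.p5. Per the file headers, the authors called peaks with MACS 2.2.7.1 on paired fragments without a control sample, keeping duplicates, at a q of 0.05 over a local background of up to 10 kb. Mapping filters are not given in the sources used here. The deposited pileup is a signal, the number of fragments over a summit. The deposited fold enrichment is a ratio of pileup to local background, and the deposited -log10 q is the caller's significance.

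Pileups were scaled to 1000000 fragments by the header totals. Peaks of the 6 replicate lists that overlapped by at least 1 bp were merged, and each list's highest value was used. Peaks were placed on GENCODE M21, whose GRCm38.p6 shares coordinates with the authors' build. Regions of all 6 lists were compared on the log2 scale with limma 3.58.1 (R 4.3.3, trended variance, Benjamini-Hochberg adjustment over 12828 regions, threshold 0.05). The code was run on simulated data with few changed regions and no overall shift between antibodies. Those data differ from the real ones in this, so the run says nothing of calls under such a shift. A region not held by all 6 lists has no fitted difference. Every region of all 6 lists, every region of 1 antibody alone and each gene's promoter sites were named. The genes and lists were chosen with earlier results of these data known, and some listed genes are not reported here. Alternatives were stricter or equal-sized lists, coverage of at least 50% of a region, other windows and promoter distances, median centring, fold enrichment, a replicate block and each library left out.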

Additional observations from a re-analysis of the deposited data

How the results depend on the processing

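Levels near the smallest callable pileup (6 to 8 fragments in a replicate list) limit the support counts. With a -log10 q of at least 5, the merged regions numbered 26 in place of 76, the regions of all 6 lists 2, the genes with a promoter peak in all 6 lists 1 and the called regions 1. With 50% of the merged region to be covered by each list, the regions of all 6 lists numbered 3 and the genes with such a promoter 2, and counting the start of the gene record alone left 3 genes. Shares over all protein-coding genes were not computed for these settings. With 10 kb or 50 kb windows there were 69 and 100 merged regions, and lists cut to an equal 31944 peaks left the counts of supported regions and promoters at 6 and 5.

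The called regions numbered 1 after median centring and 0 in limma on fold enrichment (2 at an unadjusted p below 0.05). The median log2 difference, -0.46 as reported, turned to 0.0020 after centring, which shifts every region by the same amount. On fold enrichment it was 0.023, where the median over all regions was -0.20. It was -0.64 at the stricter q and -0.98 with 50% coverage, where fewer regions were left. Esr2 region 3 (0.34 and 0.036), Fkbp4 region 3 (0.17 and 0.049) and Pgr region 1 (0.060 and 0.26) turned positive after centring and on fold enrichment, and Fkbp5 region 19 (0.010) on fold enrichment.

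With 1 library left out at a time, the median ran from -0.51 to -0.33, the merged regions from 70 to 74, the regions of all remaining lists from 5 (without BRG1 replicate 2, when the Pgr region fell apart) to 9 (without PBRM1 replicate 2), the genes with a promoter peak from 5 to 6 and the called regions from 2 to 3. Fkbp5 region 16 and Nr3c1 region 7 kept their calls in each of these fits. Same-numbered libraries did not deviate together (correlations of -0.0288 to 0.0035), and with the replicate block limma called 3 regions, as without it.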
